A study of Rattus norvegicus with 8 samples.

Results

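NMDA receptor subunits are the 7 genes Grin1, Grin2a, Grin2b, Grin2c, Grin2d, Grin3a and Grin3b, read here by the gene name that the array design gives each probe. They have 9 probes among the 41012 non-control probes of a rat array that names 18365 genes: a pair of probes each for Grin1 and Grin2a, and a single probe for each of the others. The samples are pools of CA3 pyramidal neurons cut by laser from frozen hippocampal sections of male Sprague-Dawley rats, whose age is not given. Rats had a moderate fluid percussion brain injury, a sham injury, or no treatment (naive), and brains were taken 24 hours later. In injured rats, neurons that took up Fluoro-Jade, a stain of degenerating neurons, were cut as dying and adjacent unstained neurons as surviving. Each group has 2 arrays. Each dying or surviving pool held about 600 neurons from at least 3 rats, and the size of the naive and sham pools is not given.

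An NMDA receptor is a glutamate-gated channel of an obligatory GluN1 subunit, encoded by Grin1, joined with GluN2 subunits (Grin2a to Grin2d) and sometimes GluN3 subunits (Grin3a, Grin3b). It opens when glutamate and a co-agonist, glycine or D-serine, bind while the membrane is depolarised, and it lets calcium into the cell. In adult hippocampal pyramidal neurons GluN2A and GluN2B are the main GluN2 partners, and excess calcium entry through these receptors is a classical route to excitotoxic injury.

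Several limits touch each value. Naive and sham arrays lie on 1 slide and surviving and dying arrays on another, with different versions of the scanner protocol, so injury and slide cannot be told apart. Surviving and dying pools may come from the same rats, in which case p-values over both together can be too small and those between them too large. The labels name a pair of amplification kits without saying which array had which, and their part was not tested. In pools of this kind fewer cells of a type and less RNA per cell cannot be told apart. Signals are given as multiples of the median probe of the same array, and 2 arrays a group limit the precision of each difference. A limma p-value sets a difference against the spread between these pools, drawn toward that of all probes, and not against the spread between rats.

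The pools carried markers of pyramidal neurons and of the CA3 field, with an exception, and markers of glia as well. On every array at least 8 of 9 astrocyte markers were well above background, with sums of 504 to 1643. The 6 oligodendrocyte markers given below were too, with sums of 65.2 to 331. All 5 pyramidal neuron markers with a probe were well above background on every array. Their summed signal was 5177 and 8598 times the array median in naive, 10010 and 9254 in sham, 6626 and 6785 in surviving versus 3500 and 3847 in dying pools, with the probe of Nrgn the brightest. The dimmest was Slc17a7, at 0.891 to 16.7 times the array median. The CA3 field markers Grik4 and Bok summed to 30.9 and 56.0 in naive, 53.5 and 47.0 in sham, 59.7 and 46.9 in surviving versus 41.4 in dying replicate 2. In dying replicate 1 the sum was 2.78 and Grik4, a kainate receptor subunit, was not well above background. Of 3 markers of the other hippocampal fields, Wfs1 was well above background on all 8 arrays, at 3.06 to 12.1 times the array median, and Prox1 and Dsp on none.

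Grin1, the subunit that each NMDA receptor needs, was bright in every pool. Its probe to the RefSeq transcript, spotted 10 times on each array, read 764 and 1074 times the array median in naive, 1767 and 1291 in sham, 1500 and 1394 in surviving versus 1824 and 1211 in dying neurons. The sham, surviving and dying ranges overlapped, and both sham arrays lay above both naive arrays. Group means in log2 were 9.82 (SD 0.35) in naive, 10.56 (SD 0.32) in sham, 10.50 (SD 0.07) in surviving and 10.54 (SD 0.42) in dying neurons, n = 2 each. Surviving and dying neurons differed by -0.04 log2 (95% interval -1.11 to 1.03, limma adjusted p = 0.973), which leaves room for a change of about a doubling either way. Sham exceeded naive by 0.74 log2 (SE 0.45, interval -0.29 to 1.77), with limma adjusted p = 0.882. Injured against uninjured pools gave 0.33 log2 (limma adjusted p = 0.447), and this passed the 0.05 threshold as 0.94 (adjusted p = 0.0220) with 75th percentile scaling, 0.84 (adjusted p = 0.0241) with quantile normalization and 1.12 (adjusted p = 0.00952) when scaled to probes detected on every array. The last of these also gave dying against sham as 1 (adjusted p = 0.0422), where median scaling gave -0.02 (adjusted p = 0.971).

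The start of the Grin1 gene is shown because its RefSeq transcript was bright in each group; the promoter of Grin2c, whose signal differs widely between the dying arrays, stands beside it. Of the 7 genes 4 matched the RefSeq promoter table (build GRCr8), and each window runs from 250 bases before the start, 300 bases in all. Grin1 lies at chr3:28528705-28529004 and Grin2c at chr10:101005089-101005388, both on the minus strand and written 5′ to 3′ along the gene.

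Grin1: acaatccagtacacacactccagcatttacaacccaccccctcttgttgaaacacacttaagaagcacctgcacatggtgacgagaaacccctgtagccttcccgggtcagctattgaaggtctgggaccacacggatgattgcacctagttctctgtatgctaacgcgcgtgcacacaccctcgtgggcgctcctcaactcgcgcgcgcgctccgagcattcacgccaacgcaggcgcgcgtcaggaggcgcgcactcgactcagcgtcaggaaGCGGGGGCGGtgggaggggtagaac

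Grin2c: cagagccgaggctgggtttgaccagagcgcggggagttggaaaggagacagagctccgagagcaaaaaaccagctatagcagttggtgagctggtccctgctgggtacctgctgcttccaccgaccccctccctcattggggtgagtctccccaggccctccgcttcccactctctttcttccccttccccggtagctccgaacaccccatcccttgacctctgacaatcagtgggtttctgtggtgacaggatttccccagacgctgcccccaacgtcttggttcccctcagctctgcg

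Capitals in the Grin1 sequence mark 10 bases, beginning 26 bases after the start, where the GC box GGGCGG overlaps the Egr motif GCGGGGGCG, searched on both strands. The GC box stands in 33.1% and the Egr motif in 2.73% of all 33469 rat promoter windows of this length. The window of Grin2c holds neither of these nor the cAMP response element TGACGTCA, which stands in 1.83% of windows, and the windows of Grin2d and Grin3a also hold none of the 3 motifs. A match describes letters only.

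The other Grin1 probe, designed to a sequence that the array names NMDAR1-4b, a splice form of the subunit, had another pattern. It read 12.8 and 13.4 times the array median in naive, 25.5 and 25.9 in sham, 9.01 and 5.97 in surviving versus 1.65 and 2.89 in dying neurons, from 1 spot an array. It was well above background on all 8 arrays, no groups overlapped, and the order was sham, naive, surviving, dying. Log2 means were 3.71 (SD 0.04), 4.68 (SD 0.02), 2.88 (SD 0.42) and 1.13 (SD 0.57) for naive, sham, surviving and dying, n = 2 each. What the probe hybridises to in these pools was not tested, and it is the sole probe of its kind here.

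In dying neurons the NMDAR1-4b signal fell 11.7-fold from sham, a difference of -3.55 log2 (SE 0.47, 95% interval -4.64 to -2.46, limma adjusted p = 0.00213). It passed with any array left out, where it ran from -3.96 to -3.15, and under each scaling, with a smaller size: -2.83 with the 75th percentile, -2.77 with quantile normalization, -2.54 when scaled to probes above background on all arrays and -3.17 when scaled to RefSeq probes. With normexp background correction, under which no probe of the array passes in any comparison, it was -2.04 (adjusted p = 0.519). In surviving neurons it fell 3.5-fold from sham, a difference of -1.81 log2 (SE 0.47, interval -2.90 to -0.71, limma adjusted p = 0.0373). That call does not hold under 75th percentile scaling (-1.02, adjusted p = 0.155), quantile normalization (-0.82, adjusted p = 0.259), scaling to probes above background on all arrays (-0.83, adjusted p = 0.217), normexp (-0.70, adjusted p = 0.882) or with no filter on dim probes (adjusted p = 0.0504). Nor does it hold without sham replicate 1 (-1.82, adjusted p = 0.198), sham replicate 2 (-1.79, adjusted p = 0.164), surviving replicate 1 (-2.10, adjusted p = 0.127) or surviving replicate 2 (-1.51, adjusted p = 0.259).

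Between the injured groups, both surviving arrays of the NMDAR1-4b probe lay above both dying arrays, by 1.75 log2 or 3.36-fold (SE 0.48, interval 0.64 to 2.85). The unadjusted p of limma was 0.00652 and the adjusted p was 0.125. Without dying replicate 2 the difference was 2.15 and passed (adjusted p = 0.0253), but then, as in each such case, the group has 1 array and its spread is taken from the other groups. Sham exceeded naive by 0.97 log2 (SE 0.46, interval -0.09 to 2.03, limma adjusted p = 0.882). Injured pools together were lower than uninjured pools by 4.57-fold, -2.19 log2 (SE 0.34, limma adjusted p = 0.00224). This was -1.58, -1.52, -1.40 and -2.06 under the same 4 scalings, all past the threshold, and -0.70 (adjusted p = 0.553) under normexp. The summed pyramidal neuron markers given above were likewise highest in sham and lowest in dying pools, and microglial markers were highest in dying pools. The pyramidal sum rests largely on Nrgn, 8578 of 10010 in sham replicate 1, and 2 of its 5 markers were higher in surviving than in sham pools. Of oligodendrocyte markers, 6 led by Mog summed to 193 and 290 in naive, 258 and 331 in sham, 65.2 and 70.4 in surviving versus 182 and 76.9 in dying pools, so that every injured array lay below every uninjured one. In injured against uninjured pools 4 of these 6 passed as lower by limma, where 44.3% of all probes were called, with 3 or 4 when an array was left out, 1 to 4 under other scalings and 0 under normexp. The part of these cell types in the result was not tested.

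**Figure D1:**
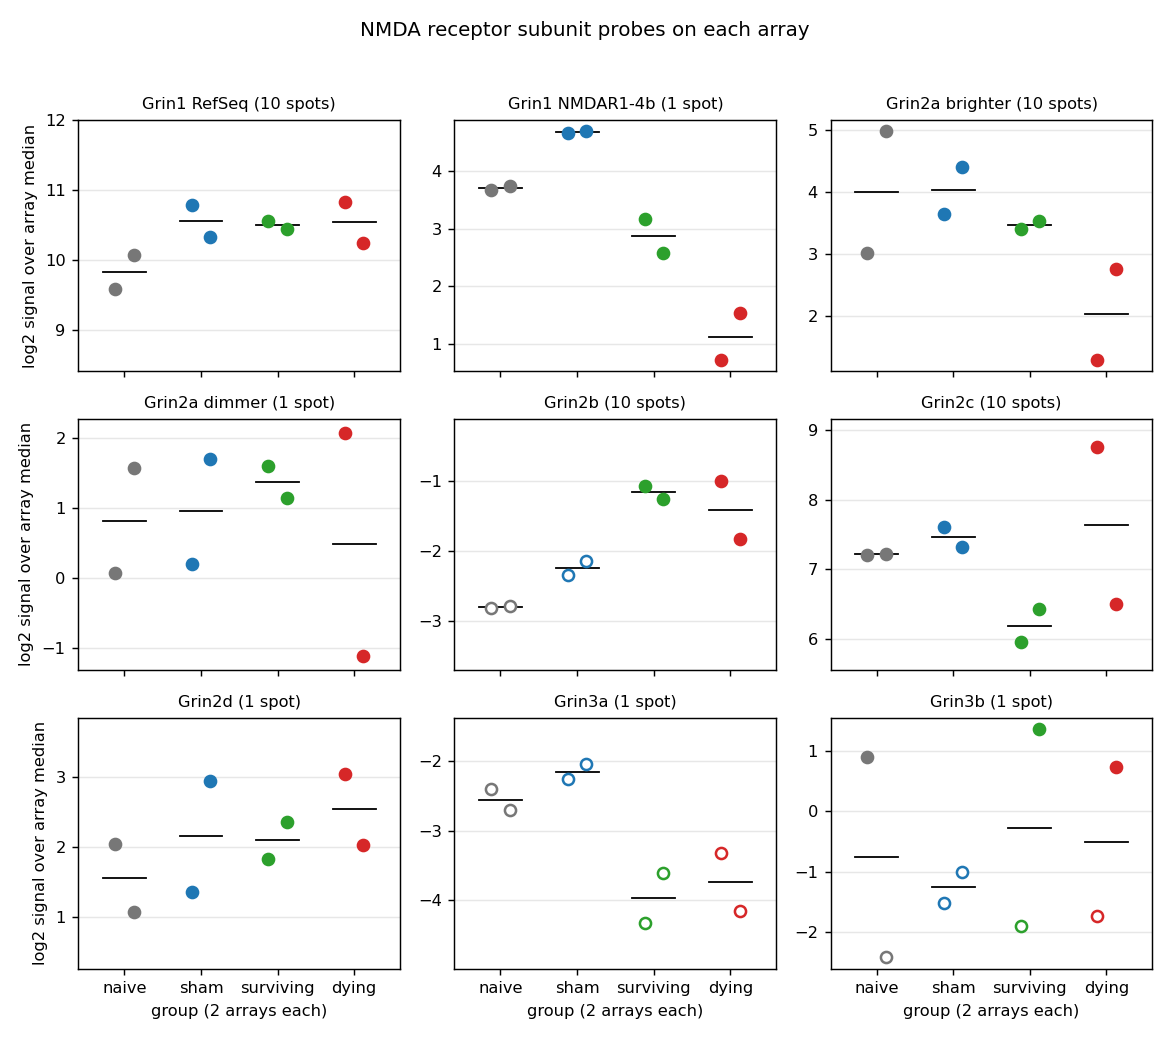
Log2 signal over the array median of each NMDA receptor probe on the 8 arrays by group, with 1 point per array, a line at the group mean and open points where the probe was not well above background. Before log2, Grin1 NMDAR1-4b separates all groups, from 25.5 and 25.9 in sham to 1.65 and 2.89 in dying neurons, and Grin2c spreads from 90.4 to 433 within the dying group.

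Grin2a encodes GluN2A, the subunit that becomes prevalent as forebrain synapses mature. Its brighter probe, spotted 10 times, read 8.11 and 31.7 times the array median in naive, 12.5 and 21.4 in sham, 10.7 and 11.6 in surviving versus 2.45 and 6.81 in dying neurons. Both dying arrays were the lowest of the 8, and the naive arrays enclosed sham and surviving ones. Log2 means were 4 (SD 1.39) in naive, 4.03 (SD 0.54) in sham, 3.48 (SD 0.09) in surviving and 2.03 (SD 1.04) in dying neurons, n = 2 each. Sham and naive differed by 0.03 log2 (interval -1.70 to 1.76). Both surviving arrays lay below both sham arrays, with an interval that reached both directions (-2.32 to 1.21).

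Dying neurons differed from sham in Grin2a by -2 log2 (SE 0.75, interval -3.74 to -0.27). The unadjusted p of limma was 0.0287. The adjusted p was 0.0610 (0.0298 with a replicate block), so without a block the difference did not pass. It passed when tests were kept to probes above background on all arrays compared (adjusted p = 0.0414), without either naive array (adjusted p = 0.0341 each) and without dying replicate 2 (adjusted p = 0.0312). Surviving neurons measured 1.44 log2 above dying ones (SE 0.76, interval -0.32 to 3.21, limma adjusted p = 0.312) with no overlap. Against sham, surviving neurons measured -0.56 (limma adjusted p = 0.623), a direction that turned to 0.23 under 75th percentile scaling, 0.38 under quantile normalization, 0.42 when scaled to probes above background on all arrays and 0.34 under normexp.

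The dimmer Grin2a probe, with 1 spot an array, read 1.05 and 2.97 in naive, 1.15 and 3.26 in sham, 3.03 and 2.22 in surviving versus 4.22 and 0.461 in dying neurons, as multiples of the array median. The groups overlapped, and the dying arrays held both the highest and the lowest value. Surviving exceeded dying by 0.89 log2 (SE 1.05, interval -1.53 to 3.32, limma adjusted p = 0.659), and the difference ran from -0.70 to 2.49 as single arrays were left out.

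Grin2b encodes GluN2B, the subunit of young and extrasynaptic receptors, and its probe was dim. It read 0.142 and 0.145 times the array median in naive, 0.197 and 0.226 in sham, 0.477 and 0.420 in surviving versus 0.502 and 0.282 in dying neurons. Every injured array lay above every uninjured array, while surviving and dying overlapped. None of its 10 spots was well above background on the 4 uninjured arrays, against 7 and 5 spots on the surviving and 6 and 5 on the dying arrays. A dim signal on an array says that this probe did not detect Grin2b there, and not that Grin2b was absent. How well the probe reports Grin2b was not tested.

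The 10 Grin2b spots of an injured array also spread widely. Before scaling, their lowest, median and highest processed signals were 8.75, 21.0 and 48.8 in surviving replicate 1 and 4.53, 17.9 and 42.9 in surviving replicate 2. They were 1.92, 11.4 and 17.3 in dying replicate 1 and 3.43, 12.4 and 39.0 in dying replicate 2. The coefficient of variation between spots was 59.5% and 59.2% on the surviving and 60.7% and 77.3% on the dying arrays, against 5.85% and 16.5% on the naive and 8.44% and 6.14% on the sham arrays. The RefSeq probe of Grin1, spotted as often, varied by 2.72% to 10.4%.

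**Figure D2:**
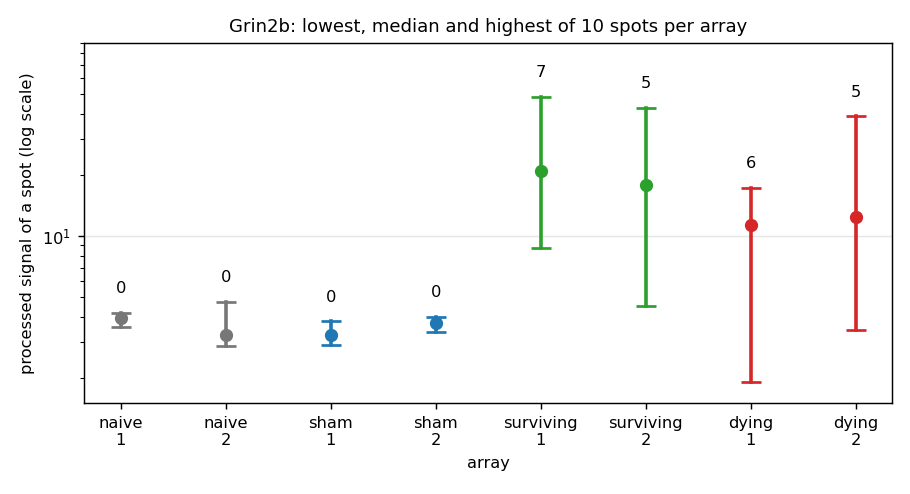
Processed signal (intensity before scaling, log axis) of the 10 Grin2b spots on each of the 8 arrays: the point is the median spot, bars reach the lowest and highest, and the number above counts spots well above background. Spots of surviving replicate 1 run from 8.75 to 48.8, while those of sham replicate 1 run from 2.92 to 3.81, none of them above background.

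For Grin2b, surviving against dying gave 0.25 log2 (SE 0.46, interval -0.81 to 1.32, limma adjusted p = 0.788), with a turn to -0.08 both when scaled to RefSeq probes and under normexp. The probe entered the tests against sham and uninjured pools only through the injured arrays, so these tests set a signal against background and give no measured direction. Since the uninjured arrays could have held any level under their lowest detectable signal, the bound on the fold lies below 1 and no fold is given. Injured against uninjured pools had a limma adjusted p of 0.0178, which is not read as a change. This value was over the threshold without sham replicate 1 (adjusted p = 0.0773), sham replicate 2 (0.0565), surviving replicate 1 (0.0702) or surviving replicate 2 (0.0634), and under normexp (0.927).

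Grin2c encodes GluN2C, a subunit known from cerebellar granule cells and, in forebrain, from astrocytes and some interneurons. Its probe, spotted 10 times, read 148 and 149 times the array median in naive, 194 and 159 in sham, 62.1 and 86.0 in surviving versus 433 and 90.4 in dying neurons. Both surviving arrays were the lowest of the 8, and dying replicate 1 was the highest by far while dying replicate 2 sat close to the surviving arrays. Log2 means were 7.21 (SD 0.01) in naive, 7.46 (SD 0.20) in sham, 6.19 (SD 0.33) in surviving and 7.63 (SD 1.60) in dying neurons, n = 2 each. The order of means was dying, sham, naive, surviving. Dying and sham overlapped (interval -1.45 to 1.79). Both sham arrays lay above both naive arrays, with an interval that reached both directions (-1.36 to 1.85).

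Surviving neurons measured -1.44 log2 against dying ones in Grin2c (SE 0.71, interval -3.08 to 0.21, limma adjusted p = 0.283). A single array decides this value: without dying replicate 2 it was -2.57 and passed (adjusted p = 0.0165), without dying replicate 1 it was -0.31 (adjusted p = 0.823), and normexp gave 0.05. Against sham, surviving neurons measured -1.27 (interval -2.91 to 0.37, limma adjusted p = 0.229). Scaling to RefSeq probes moved the median over all tested probes little, from -0.43 to -0.38. The Grin2c difference was -0.49 with the 75th percentile and -0.35 with quantile normalization. It was -0.29 when scaled to probes above background on all arrays and -0.22 with normexp. It passed without either dying array (adjusted p = 0.0430 each) and in a fit of the surviving and sham arrays alone (adjusted p = 0.0296). Dying against sham was 0.17 (adjusted p = 0.853), and sham against naive was 0.24 (adjusted p = 0.930), turning to -0.04, -0.20 and -0.16 under 75th percentile scaling, quantile normalization and scaling to probes above background on all arrays.

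Marker sums of several other cell types followed the same arrays as Grin2c. The 9 astrocyte markers, led by Slc1a3, summed to 1006 and 1173 in naive, 1643 and 1092 in sham, 504 and 562 in surviving versus 1406 and 580 in dying pools. The 9 interneuron markers, led by Npy, summed to 633 and 886, 764 and 913, 539 and 484, and 2091 and 526 in the same order. The 4 markers of oligodendrocyte precursors, led by Olig1, summed to 408 and 383, 578 and 432, 252 and 281, and 1012 and 548. The astrocyte and precursor sums were lowest in both surviving pools, as Grin2c was, while the interneuron sum of dying replicate 2 lay between the surviving ones. Single markers were lowest in both surviving pools in 3 of 9 for astrocytes, 2 of 9 for interneurons and 1 of 4 for precursors. Dying replicate 1 stood above dying replicate 2 in all 3 sums, as in Grin2c. Single markers did so in 7 of 9 for astrocytes, 7 of 9 for interneurons and 4 of 4 for precursors, and the sums rest largely on bright genes: Slc1a3 was 942 of 1406 and Npy 1320 of 2091 in dying replicate 1. Gfap went the other way, at 2.15 and 12.3 in dying pools, and read 11.9 and 6.64 in surviving versus 3.36 and 3 in sham pools. Dying replicate 1 exceeded dying replicate 2 in the oligodendrocyte sum too, yet stayed below every uninjured array there, unlike Grin2c. In surviving against sham 2 of 8 tested astrocyte markers and 2 of 9 interneuron markers were lower by limma, where 18.8% of all probes were called, and 0 of each with a sham array left out or under normexp. Every one of these markers was well above background on at least 1 array, and their part in the Grin2c values was not tested.

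**Figure D3:**
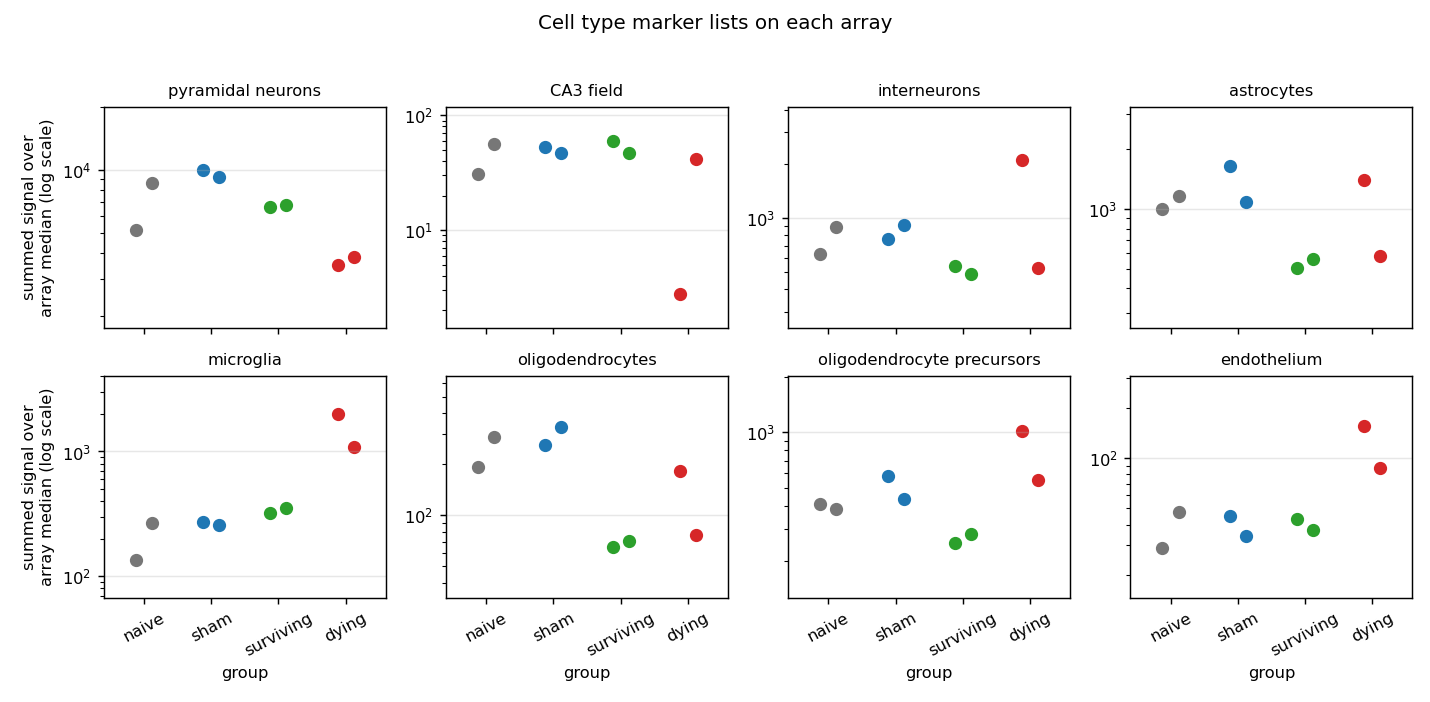
Summed signal of 8 cell type marker lists over the array median (log axis) on the 8 arrays, with 1 point per array. Microglial markers reach 2011 and 1090 in dying pools, and dying replicate 1 stands apart at 2.78 for the CA3 field.

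Grin2d encodes GluN2D, found in interneurons and early in development. Its single spot read 4.12 and 2.09 times the array median in naive, 2.57 and 7.69 in sham, 3.56 and 5.14 in surviving versus 8.23 and 4.09 in dying neurons. All groups overlapped, with the highest value in dying replicate 1. Surviving against dying was -0.44 log2 (SE 0.68, interval -2.02 to 1.13, limma adjusted p = 0.744), with 0.52 under normexp.

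Grin3a, whose GluN3A subunit lowers calcium flow through the channel, was not well above background on any array. It read 0.189 and 0.153 in naive, 0.209 and 0.243 in sham, 0.0502 and 0.0824 in surviving versus 0.1 and 0.0561 in dying neurons, and was not tested. Grin3b, for GluN3B of motor neurons, was above background in naive replicate 1 at 1.86, surviving replicate 2 at 2.57 and dying replicate 2 at 1.67. On the other arrays it read 0.187 (naive), 0.350 and 0.501 (sham), 0.268 (surviving) and 0.301 (dying). In each of these 3 groups 1 array was above background and the other was not, so it was not tested and no fold is given.

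Set side by side, the subunits did not move as a block between surviving and dying neurons. Of 7 probes tested 4 were higher and 3 lower in surviving neurons. 0 of 7 passed an adjusted p of 0.05 with limma, as did 0% of all 27430 probes tested, whose smallest adjusted p was 0.0726. An unadjusted p under 0.05 was reached by 1 of 7 (NMDAR1-4b), against 21.5% of all probes. Without dying replicate 2, 2 passed (NMDAR1-4b and Grin2c), against 21.2% of all. The median difference of the members was 0.25 log2 beside 0.14 over all probes, and 0.43 without Grin2b.

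Against sham, a single member, NMDAR1-4b, was called lower in each injured group. In surviving neurons this is 1 of 7 tested, against 18.8% of all 26918 probes, and 2 of 7 had an unadjusted p under 0.05, against 36.9%, of which Grin2b was below background in sham. In dying neurons it is 1 of 7, against 44% of all 25647 probes, and 2 of 7 unadjusted, against 54.2%. Each of these shares of members lies below that of the whole array, but 7 probes are few and the difference was not tested. The count in surviving neurons was 0 under quantile normalization and normexp, with no filter on dim probes, and with either sham or either surviving array left out. The calls under 75th percentile scaling and scaling to probes above background on all arrays were of Grin2b, there set against background, and not of NMDAR1-4b in surviving neurons. Member medians were -0.06 for surviving and -0.02 for dying neurons, or -0.31 and -0.25 without Grin2b, beside -0.43 and -0.46 over all probes.

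Between sham and naive rats all 6 tested probes were higher in sham, with a median of 0.42 log2 beside 0.37 over all probes. 0 of 6 passed with limma, as did 0% of all 20741 probes tested, and 0 of 6 had an unadjusted p under 0.05, against 4.85%. Injured against uninjured pools gave 2 of 7 past the threshold, against 44.3% of all 28397 probes, and 3 of 7 unadjusted, against 53.3%. Of the 2, NMDAR1-4b was lower, and Grin2b was set against background and is not read as a change. Normexp gave 0, and leaving out a sham or a surviving array left NMDAR1-4b alone.

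The scale of the array sets where 0 lies in these differences. With the array median the median difference over all tested probes was -0.43 for surviving and -0.46 for dying neurons against sham. It became 0.36 and 0.27 with the 75th percentile, 0.18 and 0.21 with quantile normalization, 0.55 and 0.56 when scaled to probes above background on all arrays, and -0.38 and -0.08 when scaled to RefSeq probes. For sham against naive it was 0.37, and 0.08, 0.04, -0.04 and 0.21 in the same order. For surviving against dying it was 0.14, and 0.20, 0.07, 0.10 and -0.19. The surviving and 1 of the dying arrays were brighter, with raw medians of 52.2, 48.2 and 52.6, than dying replicate 1 at 19.2, naive arrays at 27.2 and 22.7 and sham arrays at 16.5 and 16.4.

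**Figure D4:**
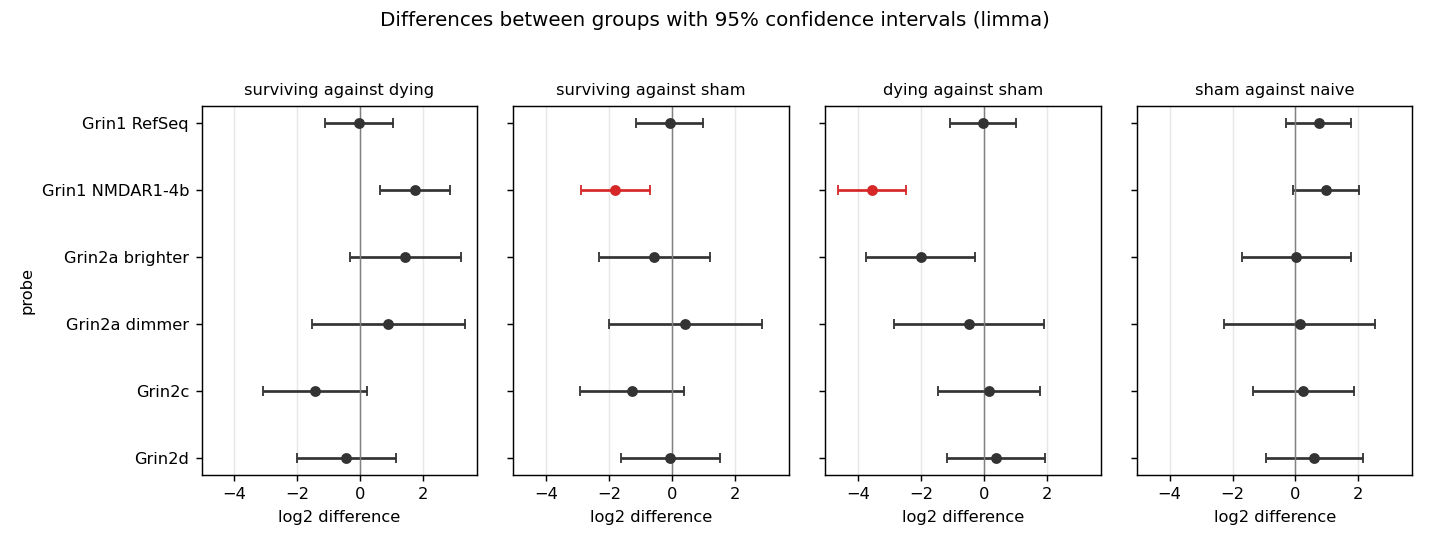
Log2 difference of 6 NMDA receptor probes (Grin2b, below background in sham and naive, is not drawn) in 4 comparisons, with bars for the 95% interval of limma and red where past the threshold. NMDAR1-4b lies lowest in dying against sham at -3.55 (-4.64 to -2.46), and the RefSeq probe of Grin1 lies near 0 between surviving and dying neurons (-0.04).

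The balance of GluN2A to GluN2B is often read as a sign of receptor maturity, and a ratio within an array does not depend on array scaling. The log2 ratio of the Grin2a to the Grin2b signal was 5.84 and 7.77 in naive, 5.99 and 6.56 in sham, 4.48 and 4.79 in surviving versus 2.29 and 4.59 in dying neurons. Surviving and dying arrays overlapped, and the measured injured values lay below the uninjured ones. A ratio between probes has no meaning as a level, only in its change between arrays. On uninjured arrays Grin2b was below background: with it set to the lowest detectable signal the ratios there were 3.79 and 5.79 in naive and 3.95 and 4.56 in sham, which overlap the injured ones. No difference between injured and uninjured pools is read from the ratio. Surviving exceeded dying by 1.19 log2 (two-sided exact permutation p = 0.667, where the smallest possible is 0.333).

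Microglial markers were highest in the dying pools. The 11 markers, led by C1qa and C1qb, summed to 134 and 266 in naive, 274 and 256 in sham, 320 and 352 in surviving versus 2011 and 1090 in dying pools. In dying against sham 5 of 9 tested passed as higher by limma, where 44% of all probes were called, 3 with either sham array left out and 0 under normexp. Endothelial markers, led by Vwf or Cldn5, summed to 29.1 and 47.3, 45.0 and 34.4, 43.3 and 36.9, and 155 and 87.6 in the same order, with Tek at background on every array. The NMDAR1-4b probe was lowest in the same pools where the microglial and endothelial sums were highest, and the part of these cells in the result was not tested.

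By pattern over the 8 arrays, the named probes most like the RefSeq probe of Grin1 were Rgc32 (Pearson's r = 0.980), Pwwp2 (0.976), Aes (0.975), Pmm1 (0.971) and Slc2a6 (0.97), of 9157 candidates above background on every array. For Grin2a, the 5 most alike include RGD1308877 (r = 0.973), RGD1562209 (0.967), Osbpl1a (0.966) and LOC500118 (0.965). None are given for Grin2b, which was below background on 4 of the 8 arrays. The r values describe 8 arrays that share slides and scaling, and the genes were picked as the highest of all candidates.

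The receptor works with proteins that anchor it, carry it to the membrane, modify it, act below it and supply its co-agonists, here lists of 86 genes of which 81 have a probe. Neto1, Kif17, Crtc1, Mef2c and Ddo have none. Between surviving and dying neurons 53 of 69 tested genes were higher and 16 lower in surviving neurons, with a median of 0.76 log2 beside 0.14 over all probes. The median was 0.49 with quantile normalization, 0.42 when scaled to RefSeq probes and 1.23 with normexp. In the same comparison marker medians were 0.88 for pyramidal neurons, 2.54 for the CA3 field and -1.55 for microglia, and their part in the result was not tested. Camk2a belongs both to the pyramidal markers and to these lists. 0 of 69 passed with limma, and 15 had an unadjusted p under 0.05, all higher in surviving neurons, where 21.5% of all probes did. Without dying replicate 2, 15 of 69 passed, 14 of them higher, where 21.2% of all probes did. Both counts of 15 lie near the share of the whole array. The calcium signalling list held 8 of the 15 with an unadjusted p under 0.05, among 18 tested, with a median of 1.30.

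Calcium signalling below the receptor had the lowest median of the lists in dying neurons against sham: 12 of 17 tested genes passed as lower by limma and 0 as higher, with a median of -2.47 beside -0.46 over all probes, of which 44% were called. With tests kept to probes above background on all arrays compared, its median was -2.15, beside -2.17 for kinases and phosphatases. Under the other scalings 7 to 11 passed as lower, with 2 without sham replicate 1, 5 without sham replicate 2 and 0 under normexp. In the same comparison the median difference was -1.47 over 5 pyramidal neuron markers, -2.53 over the CA3 field pair, with dying replicate 1 apart at a sum of 2.78, and -1.55 over 6 oligodendrocyte markers, and their part in the result was not tested. Camk2a belongs both to the pyramidal markers and to the calcium signalling list. Ppp3ca, a catalytic subunit of the phosphatase calcineurin, read 1161 and 1906 in naive, 2286 and 2291 in sham, 441 and 732 in surviving versus 239 and 473 in dying neurons. Camk2b, a subunit of the kinase CaMKII, read 388 and 655, 831 and 750, 491 and 338, and 99.9 and 291 in the same order. Ppp3ca was highest in sham pools and its surviving and dying ranges overlapped, and Camk2b of dying neurons lay below every uninjured array.

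Ppp3ca differed by -2.77 log2 between dying neurons and sham (limma adjusted p = 0.00622, and 0.0539 without sham replicate 1). It differed by -2.01 between surviving neurons and sham (limma adjusted p = 0.0393, and up to 0.211 with an array left out). Camk2b differed by -2.21 in dying neurons (limma adjusted p = 0.0206, and 0.113 without sham replicate 1). This Camk2b call and that of Ppp3ca in surviving neurons were lost under 75th percentile scaling and quantile normalization. Camk2a, the partner subunit of Camk2b, read 29.4 and 23.3 in sham, 33.5 and 24.8 in surviving versus 3.38 and 14.6 in dying neurons (-1.90 for dying against sham, limma adjusted p = 0.0679). Its naive arrays read 14.5 and 34.7, a range that holds both surviving arrays and dying replicate 2. Creb1, a transcription factor activated by calcium, was above background on 1 surviving array alone.

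Among kinases and phosphatases that act on the subunits, 12 of 17 tested genes passed as lower in dying neurons than in sham by limma and 0 as higher, with a median of -2.13, where 44% of all probes were called. The count of lower genes was 6 with the 75th percentile, 5 with quantile normalization, 2 without sham replicate 1, 4 without sham replicate 2 and 0 under normexp. The same marker medians of -1.47 (pyramidal), -2.53 (CA3 field) and -1.55 (oligodendrocyte) stand beside this list. Fyn, a kinase that phosphorylates GluN2 subunits, read 28.2 and 28.1 in sham, 17.4 and 15.1 in surviving versus 2.05 and 10.6 in dying neurons (-2.59 for dying against sham, limma adjusted p = 0.0293, and up to 0.131 with an array left out). Its relative Src read 86.1 and 73.0, 104 and 79.8, and 57.2 and 47.4 (-0.61, adjusted p = 0.282). Src did not pass, and its dying arrays lay within its naive range of 45.7 to 64.6. Fyn lost the call under 75th percentile scaling and quantile normalization. Its naive arrays read 12.3 and 29.9, a range that holds both surviving arrays. Ptpn5, the phosphatase STEP that opposes Fyn, read 2.60 and 2.15 in sham, 5.38 and 2.55 in surviving versus 0.580 and 3.88 in dying neurons. Dapk1, a death-associated kinase, read 1.99 and 2.90, 5.90 and 2.70, and 9.23 and 5.21 (1.53 for dying against sham, limma adjusted p = 0.0625). In naive pools Ptpn5 read 1.6 and 1.7 and Dapk1 read 1.5 and 2.59.

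Of scaffold and anchoring genes, 6 of 16 tested passed as lower and 2 as higher in dying neurons than in sham by limma, with a median of -1.59. In the same comparison marker medians were -1.47 for pyramidal neurons and -2.53 for the CA3 field. They were -1.55 for 6 oligodendrocyte markers, 1.89 for microglia and 2.23 for endothelium, and their part was not tested. The 8 called of 16 lie near the 44% of all probes, and the count was 1 without sham replicate 1, 3 without sham replicate 2 and 0 under normexp. The split was 5 lower and 3 higher (median -0.87) with the 75th percentile, 3 and 0 (median -0.42) with quantile normalization, and 3 and 4 (median -0.57) when scaled to probes above background on all arrays. Shank2, a scaffold of the postsynaptic density, read 12.4 and 17.0 in naive, 21.6 and 15.5 in sham, 3.62 and 3.42 in surviving versus 2.72 and 1.80 in dying neurons. Its injured arrays all lay below its uninjured ones, and it fell by 3.05 log2 in dying neurons (limma adjusted p = 0.00295, and at most 0.0396 with an array left out). In surviving neurons its difference was -2.38 (adjusted p = 0.0163, and up to 0.144 with an array left out). Shank1 read 30 and 32.6 in sham, 7.08 and 7.25 in surviving versus 10.2 and 6.80 in dying neurons (-2.13 with limma adjusted p = 0.0202 and -1.91 with adjusted p = 0.0120). The Shank1 calls were lost with either sham array left out (adjusted p up to 0.149 and 0.0796 with an array left out) and under 75th percentile scaling. Shank3 read 316 and 209, 148 and 140, and 128 and 111 (-1.11 in dying neurons, adjusted p = 0.0667). In naive pools Shank1 read 34 and 24.3 and Shank3 read 229 and 230.

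Homer1, which links the receptor complex to metabotropic glutamate receptors, read 79.3 and 85.1 in sham, 50.3 and 53.7 in surviving versus 20.2 and 26.7 in dying neurons. The 3 groups did not overlap, and dying neurons differed from sham by -1.82 log2 (limma adjusted p = 0.0111, and 0.0790 without sham replicate 1). Dlgap1, a bridge between PSD-95 proteins and Shank, read 336 and 274, 101 and 108, and 73.1 and 68.8 (-2.10 in dying neurons, adjusted p = 0.0126, and 0.0956 without sham replicate 1). Dlg2, also called PSD-93, read 10.7 and 8.28, 6.41 and 3.27, and 0.113 and 1.71 (adjusted p = 0.0150 in dying neurons, and 0.0866 without sham replicate 1), with no fold since 1 dying array was not above background. Homer1 and Dlgap1 also lost the call under quantile normalization. In naive pools Homer1 read 57 and 59.2, nearer to surviving than to sham arrays. Dlgap1 read 140 and 304 there and Dlg2 read 5.11 and 9.16. Dlg4, which encodes PSD-95, read 0.873 and 0.748 in surviving versus 0.491 and 0.374 in dying neurons and was below background in sham, so no fold is given. It was above background in naive replicate 1, at 1.34. Dlg1 and Nos1 were above background on no array, and Dlg3 on 1 naive and 1 surviving array. Ephb2, a receptor that binds Grin1 protein, was above background on the injured arrays alone, at 0.991 and 0.889 in surviving versus 1.04 and 0.511 in dying neurons. Its limma adjusted p against sham was 0.0464 for surviving and 0.0496 for dying neurons, but these tests set a signal against background. The bound against sham is 1.1-fold for surviving and 0.851-fold for dying neurons, and 1.17-fold for injured against uninjured pools. Both calls against sham were lost under quantile normalization, and no change is read.

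Among genes of co-agonist supply, calls went both ways. In dying neurons 3 of 11 tested passed as higher and 1 as lower than in sham by limma, with a median of 0.18, where 44% of all probes were called, and 2 of the 3 higher were below background in sham. The median was 0.90 with the 75th percentile, 0.54 with quantile normalization, 1.20 when scaled to probes above background on all arrays and 0.56 when scaled to RefSeq probes. Without sham replicate 1 there was 1 call and a median of 1.06, without sham replicate 2 there were 0 calls and a median of -0.54, and normexp gave 0 calls. Of transport genes 1 of 4 passed as lower and 0 as higher, and 0 with either sham array left out. The direction turns with scaling, to 0 lower and 1 higher with the 75th percentile or RefSeq probes and 0 lower and 2 higher with probes above background on all arrays. Slc6a9, the glycine transporter GlyT1, was below background on each uninjured array and read 1.26 and 1.24 in surviving versus 2.02 and 1.26 in dying neurons. Gldc, of the glycine cleavage system, was above background in naive replicate 1 at 1.81, below it in sham, and read 4.65 and 2.72 in dying neurons. Both entered the test against sham only through the injured arrays, so their calls set a signal against background and are not read as a change. The lowest detectable sham signal gave bounds for dying neurons of 1.86-fold for Slc6a9 and 4.15-fold for Gldc. The remaining higher call was Slc1a5, a neutral amino acid transporter. Slc1a5 read 3.28 and 0.753 in sham and 25.8 and 17.1 in dying neurons (adjusted p = 0.00759, and 0.0504 without sham replicate 2), with no fold since 1 sham array was not above background. The lower call was Psph, the last enzyme of serine synthesis, at 18.9 and 23.1 in sham and 5.33 and 5.57 in dying neurons (-1.94, adjusted p = 0.0116, up to 0.0824 with an array left out and 0.0800 across scalings). Srr, which makes D-serine, read 28.8 and 18.7 in sham, 19.5 and 18.7 in surviving versus 8.95 and 10.7 in dying neurons (-1.24 for dying against sham, adjusted p = 0.0591). Slc7a10, a D-serine and glycine transporter, read 53.3 and 57.3, 25.5 and 35.3, and 143 and 9.42, so that the dying arrays stood at both ends. Phgdh, which starts serine synthesis, read 166 and 115, 121 and 139, and 500 and 186, with dying replicate 1 highest. Shmt2, which turns serine into glycine in mitochondria, read 34.0 and 44.1, 25.0 and 16.0, and 34.0 and 15.5. In naive pools Slc1a5 read 4.97 and 2.26, Psph 10.8 and 15.9 and Srr 13.3 and 20.5. Slc7a10 read 36.5 and 44.8 there, Phgdh 79.8 and 154 and Shmt2 21.8 and 25.2. Slc7a10, Phgdh and Shmt2 did not pass in either injured group, and dying replicate 1 was also the array with the highest astrocyte, interneuron and microglial sums of the injured pools, whose part was not tested.

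Over all lists, dying against sham gave 32 genes lower and 5 higher of 65 tested, 3 of the 5 below background in sham, with a median of -1.76, where all probes gave 7426 lower and 3864 higher of 25647. The split depends on scaling: 21 lower and 9 higher with the 75th percentile, 15 and 5 with quantile normalization, 15 and 11 when scaled to probes above background on all arrays, and 28 and 7 when scaled to RefSeq probes. In place of 37 genes, 6 were called without sham replicate 1 and 12 without sham replicate 2, and 0 under normexp. Surviving against sham gave 9 lower and 3 higher of 68 tested, all 3 below background in sham, where all probes gave 3240 lower and 1834 higher, 18.8% of those tested. It gave 3 lower and 6 higher with the 75th percentile, 3 lower and 0 higher with quantile normalization, and 3 lower and 11 higher when scaled to probes above background on all arrays. Leaving out any sham or surviving array left 0 calls, normexp gave 0, and leaving out either dying array gave 23. Sham against naive gave 0 of 55, with 0 at an unadjusted p under 0.05.

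**Figure D5:**
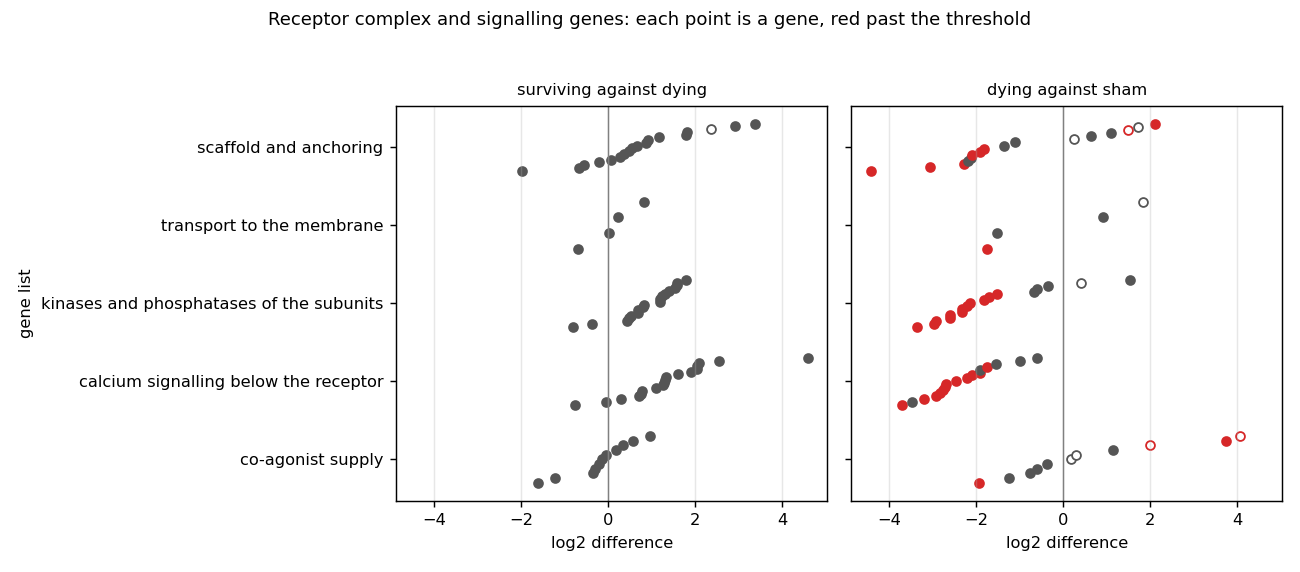
Log2 difference of each tested gene in the 5 lists of receptor partners, for surviving against dying neurons and dying neurons against sham, in red where past the limma threshold and open where the lower group was below background. Against sham the calcium signalling genes have a median of -2.47 and the co-agonist genes a median of 0.18.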

How the data were processed

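The deposited scanner files hold a processed signal per spot, in intensity units, background-subtracted and detrended by Agilent Feature Extraction 9.1.3.1 per the file headers, with no normalization between arrays. Mean spot and local background signals are intensity values per the file headers, and the marks for well above background, non-uniform and saturated spots are other values of 0 or 1 per the file headers. The value table deposited by the authors holds a signal scaled by 1 constant for each array, with low values set to a floor. All 8 arrays and 43379 non-control spots an array were used. Non-uniform spots were dropped, spots averaged per probe, divided by the array median, floored at 0.01 and taken to log2. A probe counts as well above background where at least 0.5 of its spots are so marked. Log2 differences and folds come from these deposited intensities.

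R 4.3.3 with limma 3.58.1 and the data.table package (1.17.8) fitted the 4 groups on 8 arrays, without covariates. A probe was tested where a compared group had it well above background on each of its arrays, with two-sided p-values adjusted by Benjamini-Hochberg over all probes tested in a comparison and a threshold of 0.05. The ratio has a two-sided exact permutation test. Where a group lay below background, its lowest detectable signal gave a bound. Members are matched by array gene name. List genes are matched by array gene name or by the RefSeq symbol of the accession, each read from its brightest probe, and those named come from a fixed list. A few genes of the lists are not reported here. Members and lists were chosen with earlier results of these data known.

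Alternatives were 75th percentile, quantile, RefSeq probe and above-background scaling, normexp (offset 50), the deposited value table, other filters, a floor of 0.1, non-uniform spots kept, only the groups compared, a replicate block, other probes and each array left out.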

Additional observations from a re-analysis of the deposited data

How the results depend on the processing

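Whether replicate numbers pair cannot be told with 2 arrays a group, since each deviation is a single difference between them. Deviations of same-numbered arrays correlate by -0.193 (surviving with dying) to 0.072 (naive with dying) over 15703 probes. The direction of Grin1 RefSeq in dying against sham turned with scaling, as given above. Of 20 alternatives, most kept the direction of each other difference listed here, and these did not. In surviving against dying, the Grin1 RefSeq difference (-0.04) was 0.02 with the 75th percentile and 1.52 with normexp, and -0.34 to 0.26 leaving out arrays. Grin2a dimmer (0.89) ran from -0.70 to 2.49 leaving out arrays. Grin2b (0.25) was -0.08 scaled to RefSeq probes and -0.08 with normexp, and -0.16 to 0.67 leaving out arrays. Grin2c (-1.44) was 0.05 with normexp, and Grin2d (-0.44) was 0.52 with normexp and -0.95 to 0.06 leaving out arrays. In surviving against sham, Grin2a brighter (-0.56) was 0.23 with the 75th percentile, 0.38 with quantile normalization, 0.42 scaled to probes well above background on all arrays and 0.34 with normexp. In sham against naive, Grin2c (0.24) was -0.04, -0.20 and -0.16 with the 75th percentile, quantile normalization and scaling to probes well above background on all arrays. Member probes called in surviving against dying were 0 to 2 leaving out arrays. In surviving against sham (1) they were 0 with quantile normalization, normexp, no filter and the replicate block, 3 with only the groups compared, and 0 to 2 leaving out arrays. In dying against sham (1) they were 2 with the 75th percentile, 3 scaled to probes well above background on all arrays, 0 with normexp, 2 with tests kept to probes detected on every array compared, 2 with the replicate block, and 1 to 3 leaving out arrays. In injured against uninjured (2) they were 3 with the 75th percentile, quantile normalization, scaling to probes well above background on all arrays, no filter and the replicate block, 0 with normexp, 1 with tests kept to probes detected on every array compared, and 1 to 3 leaving out arrays. With the replicate block NMDAR1-4b in surviving against sham had adjusted p = 0.0659 and Grin2a brighter in dying against sham 0.0298 (limma). Pathway genes called in surviving against dying were 0 to 15 leaving out arrays. In surviving against sham (12) they were 3 with quantile normalization, 0 with normexp, 29 with only the groups compared and 0 to 23 leaving out arrays. In dying against sham (37) they were 20 with quantile normalization, 0 with normexp and 6 to 45 leaving out arrays. The Grin2a to Grin2b ratio in injured against uninjured, where Grin2b was below background on all uninjured arrays and no difference is read (-2.50), was -0.15 with normexp, -1.20 with the other Grin2a probe and -2.75 to -1.92 leaving out arrays, and in surviving against dying (1.19) 0.04 to 2.34 leaving out arrays.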
